A study of Mus musculus with 9 samples.

Results

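The respiratory chain of the inner mitochondrial membrane is built from subunits that are nearly all encoded in the nucleus. Genes of these subunits were taken by symbol: Nduf followed by a, b, c, s or v and a number, Sdha to Sdhd, and all symbols beginning with Uqcr, Cox4 to Cox8 or Atp5, without pseudogenes and mitochondrially encoded genes. The rule found 84 members among 23319 gene symbols, of which 14324 had at least 1 read. They were 37 members of complex I, 4 of complex II, 8 of complex III, 18 of complex IV and 17 of complex V. RNA was counted in 9 libraries of mouse cortical interneurons at postnatal day 5, with 3 libraries per Cre line. The Nkx2.1 samples were taken from mice of the genotype Nkx2.1-CreER;Ai47 that had received tamoxifen on embryonic day 17 and are called ChC-GFP, for chandelier cells, in the protocol. The SOM samples were taken from the SOM-Cre;Ai47 genotype and the VIP samples from VIP-Cre;Ai47, with no tamoxifen listed for either. All mice carried Ai47, a Cre-dependent fluorescent reporter, so the cells of a library are those in which the driver was or had been active. For each library 150 fluorescent cells were picked by hand from layer 2/3 strips of medial prefrontal and anterior cingulate cortex after Pronase E and DNase I digestion. The labels do not tie the libraries to separate animals, and p-values therefore refer only to the spread between these samples. Tamoxifen was given to the Nkx2.1 line only, and its effect and that of the line cannot be told apart. In bulk RNA, fewer cells of a type and less RNA per cell cannot be told apart either.

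Complex I oxidises NADH and complex II oxidises succinate, and both pass electrons to ubiquinone. Complex III passes them on to cytochrome c and complex IV to oxygen, while the proton gradient built by complexes I, III and IV drives ATP synthesis by complex V. Interneurons that fire at high rates are known for a large demand on this pathway, and in early postnatal cortex neurons are still building up their oxidative capacity. Transcription of these genes is known to depend on NRF1 and on GABPA, an ETS factor that binds the core CCGGAAG, with the coactivator PGC-1alpha (Ppargc1a) and, for many subunits, YY1.

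Promoter sequence is given for 4 members of complexes III and IV, since these are the members of the 2 complexes whose Nkx2.1 libraries all lay below the VIP libraries and whose SOM libraries did so too, a choice made after their values were seen. The stretches are up to 250 bases before the RefSeq start site (GRCm38.p6, 5′ to 3′ on the gene's strand), without bases inside the GENCODE gene. Capitals mark matches to the NRF1 motif, with the base left of its middle free, on either strand; CCGGAAG was searched in the same way and had no full match in these stretches. In the whole 300-base promoters it matched on the opposite strand in Cox6a1, starting at -16 from the start site in the bases left off here, and in Cox8a, starting at -5, across the end of the stretch, and at 32. Cox6a1 (chr5:115348982-115349208, minus strand) had 2 NRF1 matches in 227 bases. Cox5a (chr9:57520982-57521231, plus strand), Cox8a (chr19:7217617-7217866, minus strand) and Uqcrfs1 (chr13:30545363-30545566, minus strand) had 0 matches to either motif, in 250, 250 and 204 bases.
Cox6a1: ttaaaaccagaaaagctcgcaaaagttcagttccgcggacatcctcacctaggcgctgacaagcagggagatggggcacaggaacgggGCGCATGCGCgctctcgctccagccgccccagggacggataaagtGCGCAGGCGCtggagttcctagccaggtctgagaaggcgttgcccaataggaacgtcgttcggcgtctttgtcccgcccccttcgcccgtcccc
Cox5a: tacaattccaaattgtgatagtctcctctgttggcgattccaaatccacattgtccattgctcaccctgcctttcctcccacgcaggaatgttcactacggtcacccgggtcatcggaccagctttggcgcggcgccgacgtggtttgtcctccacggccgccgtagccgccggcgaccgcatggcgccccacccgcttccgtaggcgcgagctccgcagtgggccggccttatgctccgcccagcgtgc
Cox8a: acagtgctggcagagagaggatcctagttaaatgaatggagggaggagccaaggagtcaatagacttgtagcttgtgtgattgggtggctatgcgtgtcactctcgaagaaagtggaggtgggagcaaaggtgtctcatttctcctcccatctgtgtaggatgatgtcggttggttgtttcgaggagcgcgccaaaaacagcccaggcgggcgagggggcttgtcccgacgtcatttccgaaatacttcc
Uqcrfs1: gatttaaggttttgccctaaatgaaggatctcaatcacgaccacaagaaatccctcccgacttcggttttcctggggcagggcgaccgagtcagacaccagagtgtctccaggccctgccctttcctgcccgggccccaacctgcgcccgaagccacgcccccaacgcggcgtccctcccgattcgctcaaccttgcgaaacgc
G and C made up 62.1% of the stretch of Cox6a1, 63.2% of Cox5a, 52.8% of Cox8a and 60.8% of Uqcrfs1. The share in other promoters was not computed. No match says only that these letters are not in these windows.

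Over whole RefSeq promoters of 300 bases, 69 of the 84 members could be matched by symbol or synonym. The NRF1 motif with a free base stood on either strand in 17 of the 69 member promoters (24.6%), against 5.19% of 27025 genes and 12.1% of the 8000 tested genes with a promoter. Its exact form, with A as that base, stood in 5 member promoters (7.25%), against 1.07% of all genes and 2.53% of the tested genes. CCGGAAG stood in 16 (23.2%), against 9.93% of all genes and 20.5% of the tested genes, so the members were close to other expressed genes for the ETS core. AAGATGGCG, a YY1 motif, stood in 8 (11.6%), against 1.64% and 3.96%. By complex, the NRF1 motif with a free base stood in 7 of 32 promoters in complex I, 2 of 3 in complex II and 1 of 5 in complex III. It stood in 1 of 13 in complex IV, the Cox6a1 promoter above, and in 6 of 16 in complex V. These counts are small, and a difference between complexes was not tested.

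Depth lay between 6484488 and 12465997 reads in genes. Genes with a read numbered 10576, 8180 and 9484 in Nkx2.1, 10923, 11081 and 11490 in SOM and 9672, 10924 and 10927 in VIP libraries. Nkx2.1 replicate 2 had the most reads in genes and the fewest genes with a read. The part of this in low Nkx2.1 values was not tested. The enzymes that make GABA, which mark interneurons, were read in every library: Gad1 at 918 to 1943 CPM (counts over the TMM-adjusted number of reads in genes) and Gad2 at 182 to 757 CPM. Among other GABAergic neuron genes, Dlx1, Dlx2 and Dlx5 lay at 15.4 CPM or more in every library, but Slc32a1 and Dlx6 were low in Nkx2.1. Slc32a1, the vesicular GABA transporter, had 0.908, 4.32 and 8.37 CPM in Nkx2.1, 74.6, 44.7 and 15.2 in SOM and 54.0, 65.6 and 77.6 in VIP libraries. Its edgeR adjusted p-values were 0.411 against SOM and 0.248 against VIP, while DESeq2 gave 0.0221 and 0.00235, in ranges to 0.689 and 0.538 over 17 alternatives. Dlx6 had 0.114, 0 and 0.745 CPM in Nkx2.1, 4.35, 5.33 and 6.29 in SOM and 48.2, 31.9 and 7.79 in VIP. Sst lay at 1445 to 2163 CPM in SOM libraries and at 36.1 CPM or less in all others. Vip lay at 410 to 799 CPM in VIP libraries and at 3.52 CPM or less in all others, while Nkx2-1 lay at 0.0828 to 1.36 CPM in Nkx2.1 libraries. Marker sums of other cells differed between libraries: those of 8 astrocyte genes came to 3563, 663 and 253 CPM in Nkx2.1 replicates 1 to 3, 63.9 to 211 CPM in SOM and 262 to 412 CPM in VIP libraries. Those of 8 oligodendrocyte lineage genes came to 259 to 302 CPM in Nkx2.1, 100 to 264 CPM in SOM and 1.72 to 111 CPM in VIP libraries. Those of 6 excitatory neuron genes came to 0 to 116 CPM in Nkx2.1, 1.49 to 9.76 CPM in SOM and 3.28 to 156 CPM in VIP libraries. Microglial, endothelial and red cell marker sums stayed at 17.8 CPM or less in every library, with Cx3cr1, C1qc, Tmem119, Cldn5, Cdh5, Kdr, Pdgfrb and Vtn at 0 reads in all 9. Of 7 red cell markers only 5 were in the tables, and Hba-a1, Hba-a2, Hbb-b1 and Hbb-b2 were at 0 reads too. Zeros can be gaps in the tables, as described below for members, so these low sums do not show that such cells were absent. The part of these cells in the results was not tested.

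Respiratory chain genes were widely detected in these small samples. Reads were present in all 9 libraries for 68 of the 84 members (81.0%), against 27.6% of 20331 protein-coding genes. Members held 0.847%, 0.868% and 0.969% of the reads in genes in Nkx2.1, 0.937%, 0.972% and 0.771% in SOM and 1.206%, 1.035% and 0.956% in VIP libraries, or 63031 to 114968 reads. The shares of the lines overlapped, and all 8 complex III members and 33 of 37 complex I members were read in every library. Complex IV had the most gaps, with reads in all 9 libraries for 10 of its 18 members. A filter on low counts kept 70 members for testing: 34 of complex I, 3 of complex II, 8 of complex III, 10 of complex IV and 15 of complex V. Counts over these 70 leave out the 14 members with the fewest reads.

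Per kilobase of transcript, mean levels over the 9 libraries ran over a wide range within each complex. Atp5b, the catalytic beta subunit of the ATP synthase head, had the highest level with 495 CPM per kb. Cox4i1, the common isoform of complex IV subunit 4, had 485, Atp5a1, the alpha subunit of the head, had 401, and Uqcrc1, a core protein of complex III, had 343 CPM per kb. Cox5a had 324 and Cox6a1 had 307 CPM per kb. Ndufa4, counted with complex I by its symbol but known as a complex IV subunit, had 282 CPM per kb, and the iron-sulfur subunit of complex II, Sdhb, had 229. Medians of tested members were 91.1 CPM per kb in complex I, 130 in complex II, 85.4 in complex III, 89.0 in complex IV and 129 in complex V. The lowest tested member of complex I was Ndufa12 with 6.69 CPM per kb, and that of complex II was the membrane anchor Sdhc with 21.9. Transcripts of the members were short, with a median of 823 bases against 3161 bases over the tested genes.

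Sequence shared with other genes may touch these levels, which was not tested. Alignments that were not unique made up 64.5% to 68.0% of each deposited table's total, an entry that does not name their genes. Of the 84 members, 46 had at least 1 stretch of 50 bases that also occurs in transcripts of another annotated gene, and 15 had 25% or more of their 50-base stretches there. The share was 87.4% in Atp5g2 and 84.8% in Atp5l, while it was 0% in Sdha, Sdhb, Atp5d, Uqcrc1, Uqcrfs1, Ndufa5 and Ndufv3. Cox7c had 53.0%, Atp5o 50.3%, Atp5h 47.9%, Uqcrb 43.4%, Cox5a 32.0%, Cox5b 25.9% and Cox6a1 12.3%. Whether their levels were counted too low or split was not tested. Across the 76 members with a read, Spearman's rho between this share and the level per kb was -0.223, a description only, since members share libraries.

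**Figure D1:**
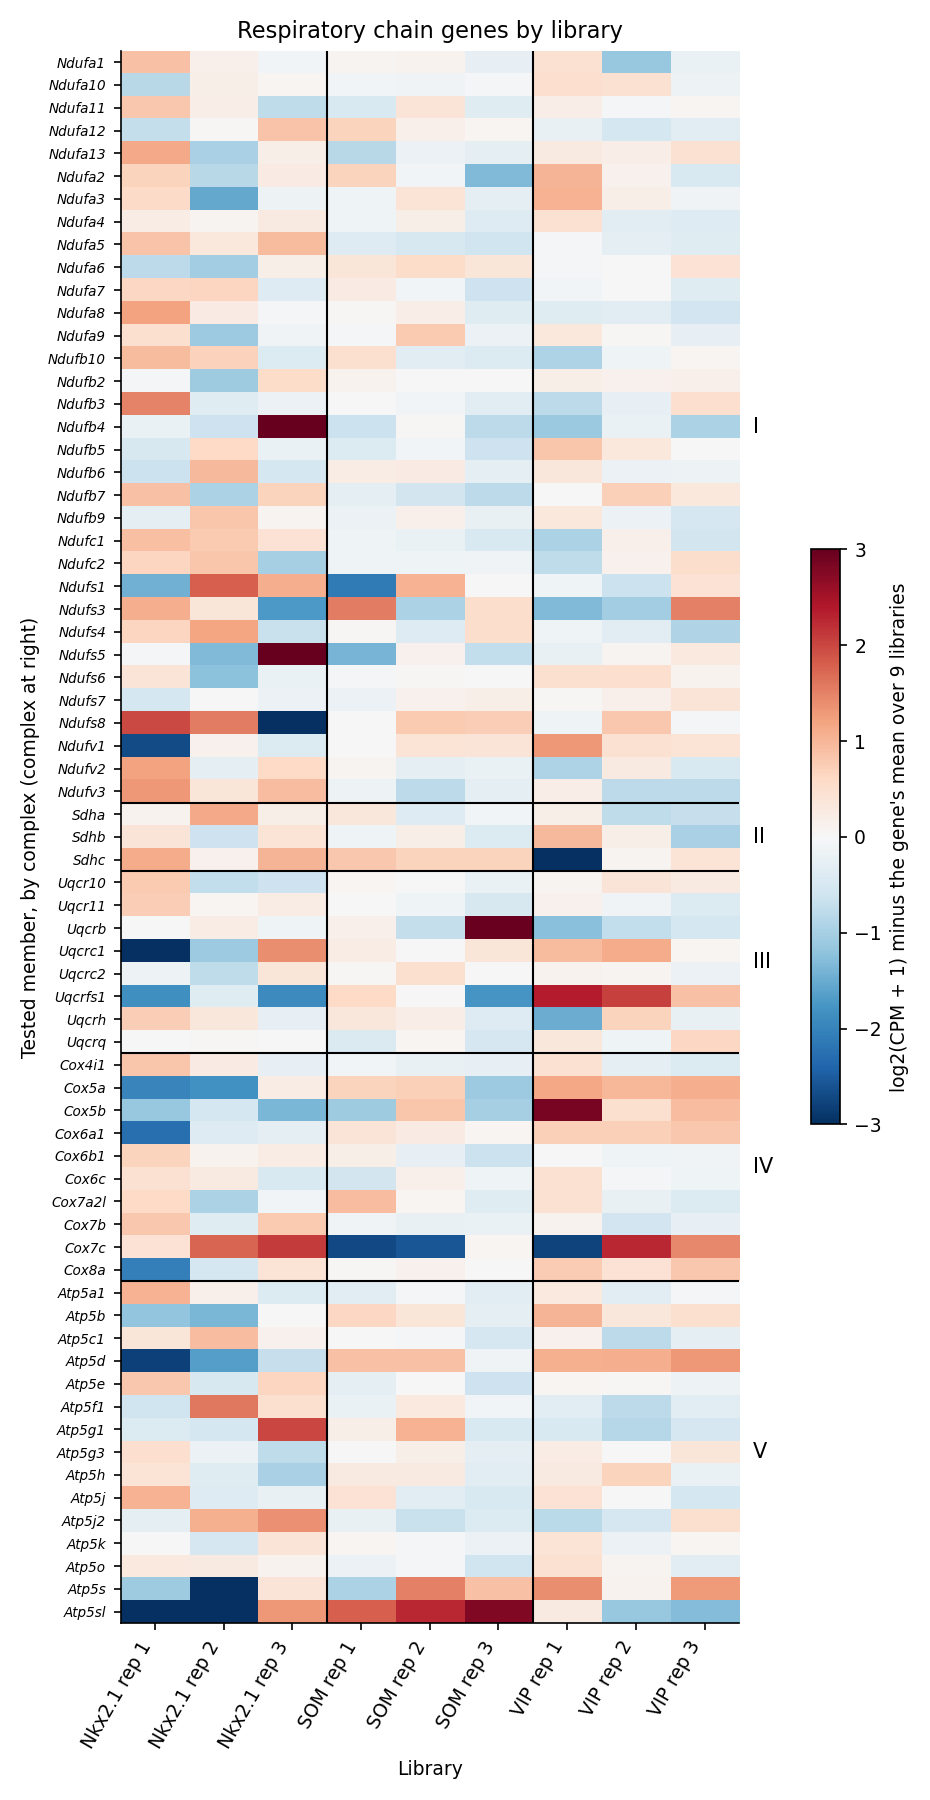
Heat map of 69 of the 70 tested members (rows, by complex I to V) in 9 libraries (columns). Colour is log2(CPM + 1) minus the gene's mean over the 9 libraries, and shades end at -3 and 3; most rows are pale, and strong colours are mostly single cells of the map, such as Ndufb4 in Nkx2.1 replicate 3 at 58.4 CPM.

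No tested member differed between lines past the threshold. With edgeR's quasi-likelihood test and Benjamini-Hochberg adjustment at 0.05 over 10728 genes, 0 of 70 members were called in Nkx2.1 against SOM, where 0.0932% of all tested genes were called. In Nkx2.1 against VIP, 0 of 70 were called, beside 0.308% of all tested genes, and in SOM against VIP 0 of 70, beside 0.0746%. The lowest adjusted p of a member was 0.326 in Nkx2.1 against SOM, 0.156 in Nkx2.1 against VIP and 0.708 in SOM against VIP. At an unadjusted p under 0.05, Nkx2.1 against SOM had 0 members higher and 2 lower (all tested genes 2.92% and 8.38%). Nkx2.1 against VIP had 0 higher and 5 lower (5.73% and 9.43%), and SOM against VIP had 0 higher and 1 lower (4.63% and 2.36%). Limma voom called 0 members in all 3 comparisons, beside 1.06%, 3.01% and 0.699% of the tested genes. The DESeq2 Wald test called 2 members in Nkx2.1 against SOM, 2 in Nkx2.1 against VIP and 0 in SOM against VIP, beside 7.73%, 12.7% and 3.84% of the genes it tested. Ndufa5 was higher and Atp5d lower in its Nkx2.1 against SOM comparison, and Atp5d and Uqcrfs1 were lower in Nkx2.1 against VIP. The 3 comparisons share libraries in pairs, so their values are given side by side and not as repeats of each other.

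Large fitted differences were less frequent among the members than over all tested genes, without matching for level. Of the 70 tested members 54 had 30 CPM or more, against 6453 of 10658 other genes, and spread between libraries falls with level, as given below. Over 2-fold differences were fitted for 21.4% of the tested members in Nkx2.1 against SOM, 30% in Nkx2.1 against VIP and 10% in SOM against VIP, beside 53.1%, 59.3% and 44.4% of all tested genes. Median log2 values of the members were 0.29, 0.18 and -0.14 in these comparisons, beside -0.01, 0.00 and 0.00 over all tested genes. Without scaling beyond the total, the median of all tested genes moved to -0.17, -0.19 and -0.04, and that of the members to 0.12, -0.02 and -0.16. With upper-quartile scaling the members' medians were 0.01, 0.00 and -0.05, beside -0.286, -0.185 and 0.071 over all tested genes. The members' median in Nkx2.1 against VIP thus changed sign without scaling, and all 3 came near 0 with upper-quartile scaling. Under each of these scalings the members' median stood above that of all tested genes in the Nkx2.1 comparisons. In SOM against VIP it stood below.

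With TMM scaling, complex IV was the complex whose summed level in VIP did not overlap that of either other line, and 1 gene, Cox5a, carried much of the difference from Nkx2.1. Summed CPM of the complex IV members was 1088, 894 and 989 in Nkx2.1, 1096, 1041 and 767 in SOM and 1503, 1194 and 1222 in VIP libraries. Nkx2.1 and SOM libraries all lay below the VIP libraries, with means of 990.5 ± 97.0 CPM in Nkx2.1, 968 ± 176 in SOM and 1306 ± 171 in VIP (SD, n = 3 each). The log2 difference was -0.40 in Nkx2.1 against VIP and -0.44 in SOM against VIP, and the absence of overlap held under each scaling tried. As a share of the reads of all members, which needs no scaling between libraries, complex IV made up 10.2% ± 0.368 in Nkx2.1, 11.1% ± 0.930 in SOM and 12.9% ± 0.615 in VIP, again with both below every VIP library. Without Cox5a, a choice made after its values were seen, the summed CPM was 1049, 850 and 802 in Nkx2.1, 843, 778 and 692 in SOM and 1148, 875 and 880 in VIP libraries. Nkx2.1 then overlapped VIP, with a log2 difference of -0.10, while SOM still lay below VIP without overlap, at means of 771 and 967 CPM. The shares of all member reads then overlapped in all 3 comparisons.

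Complexes I and II stood above those of SOM in the Nkx2.1 libraries with TMM scaling. Complex I summed to 4116, 3762 and 3197 CPM in Nkx2.1, 2791, 3186 and 2738 CPM in SOM and 3460, 2989 and 2836 CPM in VIP libraries, so Nkx2.1 lay just above SOM and overlapped VIP. The closest pair was 3197 CPM in Nkx2.1 replicate 3 and 3186 CPM in SOM replicate 2. Ndufb4 alone gave 58.4 and 1.78 CPM to these sums, a larger difference than that between them. Complex II summed to 800, 982 and 820 CPM in Nkx2.1, 755, 622 and 592 in SOM and 873, 532 and 404 in VIP. The log2 difference of Nkx2.1 against SOM was 0.34 in complex I and 0.41 in complex II, and both overlapped without scaling or with upper-quartile scaling, where complex I came to 0.18 and 0.07. As a share of member reads, complex I made up 38% ± 3.95 in Nkx2.1, 33.6% ± 2.85 in SOM and 30.7% ± 1.47 in VIP, with Nkx2.1 above VIP in every library and overlapping SOM. Complex II made up 9.0% ± 1.57 in Nkx2.1, 7.59% ± 0.829 in SOM and 5.80% ± 1.41 in VIP, with the same order and overlap. Shares of 1 sum are not independent of each other. The highest complex I sum, in Nkx2.1 replicate 1, stood in the library with the highest astrocyte marker sum, and the part of these cells in it was not tested.

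Complexes III and V overlapped in all comparisons with TMM scaling, but not with every other one. Complex III lay lower in SOM than in VIP without overlap with no scaling, with DESeq2 size factors and with the total without Rn45s and Malat1, at log2 differences of -0.51, -0.52 and -0.51 beside -0.47 with TMM. Complex V lay lower in Nkx2.1 than in VIP with no scaling, upper-quartile scaling and the total without Rn45s and Malat1, at -0.38, -0.37 and -0.37 beside -0.18 with TMM. Complex III varied most among the Nkx2.1 libraries, with 638, 629 and 1687 CPM, against 1104, 1100 and 1033 CPM in SOM and 1714, 1775 and 1097 CPM in VIP. Its high value in Nkx2.1 replicate 3 was mostly Uqcrc1, which had 53.6, 202 and 1136 CPM in Nkx2.1, 508.6, 429.5 and 553 CPM in SOM and 837, 933.5 and 449 CPM in VIP. Complex V averaged 3168 ± 540 CPM in Nkx2.1, 3066 ± 548 in SOM and 3605 ± 704 in VIP (SD, n = 3 each). All members together averaged 9703 ± 659 CPM in Nkx2.1, 8674 ± 968 in SOM and 10140 ± 1582 in VIP, and overlapped with TMM scaling.

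**Figure D2:**
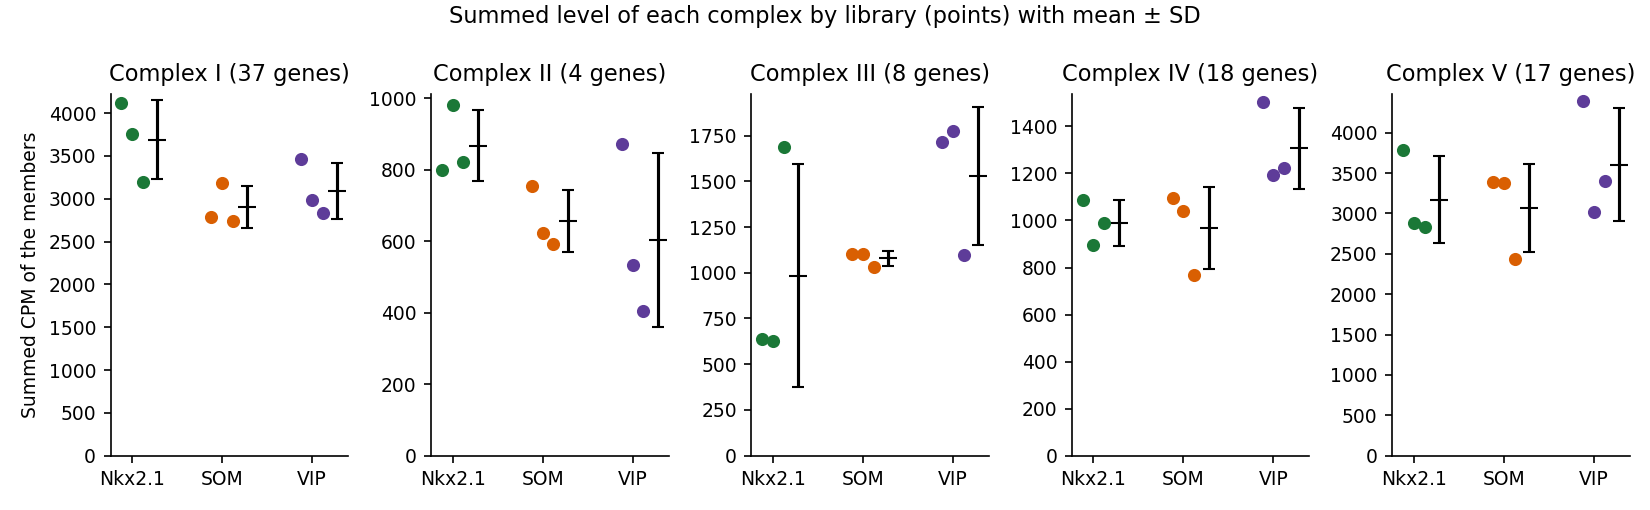
Summed CPM of all members of complexes I to V (1 panel each, vertical axis from 0) in Nkx2.1, SOM and VIP libraries; points are libraries, and the bars beside them are the mean ± SD of 3 libraries. In the complex IV panel, Nkx2.1 and SOM points reach 1096 and all VIP points lie at 1194 or above.

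Among single members, groups of libraries that did not overlap were about as frequent as over all genes. In Nkx2.1 against SOM, Nkx2.1 lay above SOM without overlap in 7 members and below it in 4, or 15.7% of 70, beside 5.90% and 14% of all tested genes and 19.9% in either direction. In Nkx2.1 against VIP the counts were 7 above and 9 below, or 22.9%, beside 7.31% and 12.8% of all tested genes and 20.1% in either direction. In SOM against VIP they were 4 above and 12 below, or 22.9%, beside 10.9% and 9% of all tested genes and 19.9% in either direction. Complex IV had 1 member above and 4 below in Nkx2.1 against VIP and 0 above and 3 below in SOM against VIP. Of the 70 tested members, 40 overlapped in every comparison, 20 failed to overlap in 1, 7 in 2, and Atp5d, Cox6a1 and Ndufa5 in all 3. The 10 members in 2 or 3 comparisons made up 14.3%, beside 18.6% of all tested genes.

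In complex I, 3 small accessory subunits had their highest levels in Nkx2.1 libraries. Ndufa5, an accessory subunit of the arm that reaches into the matrix (chr6:24518666-24528013, minus strand), had 202, 138 and 213 CPM in Nkx2.1, 84.7, 79.0 and 72.5 in SOM and 109, 91.3 and 84.9 in VIP libraries. Each Nkx2.1 library lay above the others, at 2.34-fold the SOM mean and 1.94-fold the VIP mean. The fitted log2 difference was 1.23 (SE 0.64, edgeR adjusted p = 0.519) against SOM and 0.96 (SE 0.63, edgeR adjusted p = 0.555) against VIP. DESeq2 gave an adjusted p of 0.024 against SOM, the lowest of a range to 0.781 over 17 alternatives.

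Ndufv3, the small accessory subunit of the NADH-oxidising module (chr17:31520115-31531331, plus strand), had 222, 115 and 169 CPM in Nkx2.1, 80.5, 51.2 and 73.4 in SOM and 102, 51.7 and 51.5 in VIP libraries. All Nkx2.1 libraries lay above the rest, with a fitted log2 difference of 1.30 (SE 0.74) against both SOM and VIP and edgeR adjusted p-values of 0.581 and 0.471. Ndufc1, a subunit of the membrane arm, had 62.4, 57.0 and 44.8 CPM in Nkx2.1, 30.1, 28.7 and 23.8 in SOM and 16.4, 36.8 and 22.1 in VIP libraries. Its fitted log2 difference was 1.12 (SE 1.14, edgeR adjusted p = 0.757) against VIP. Ndufa8, which faces the intermembrane space, had 401, 206 and 167 CPM in Nkx2.1 libraries against 136, 139 and 117.5 CPM in VIP libraries, a log2 difference of 0.98 (SE 0.54, edgeR adjusted p = 0.449) that came to 0.54 without Nkx2.1 replicate 1, and its Nkx2.1 and SOM libraries overlapped.

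Core subunits of complex I went in different directions by their means. Ndufv2, Ndufs1 and Ndufs8 were highest in Nkx2.1, at 310, 221 and 120 CPM, though their lines overlapped. Ndufv1, Ndufs3 and Ndufs7 were lowest there, at 99.6, 23.6 and 63.5 CPM. Ndufv1, which binds NADH and the flavin, had 22.7, 163 and 113 CPM in Nkx2.1, 150, 199 and 197 in SOM and 371, 208 and 199 in VIP libraries. All Nkx2.1 libraries lay below the VIP libraries here, with a log2 difference of -1.38 (SE 0.72, edgeR adjusted p = 0.410). Its partner in the NADH module, Ndufv2, the complex I member with the highest CPM, had 463, 164 and 302 CPM in Nkx2.1, 210, 161 and 171 in SOM and 104, 240 and 143 in VIP, and its lines overlapped. Ndufs7, an iron-sulfur subunit near the quinone site, had 51, 74.6 and 64.9 CPM in Nkx2.1 libraries against 75.6, 81.8 and 97.5 CPM in VIP libraries, without overlap. In SOM against VIP, 1 of the 34 tested complex I members, Ndufa12, lay above without overlap and 6 lay below. Both directions together made up 20.6% of the 34, beside 19.9% of all tested genes. The 6 lying below were Ndufa5, Ndufa13, Ndufb2, Ndufb5, Ndufb7 and Ndufs6. Of these, Ndufb7, of the membrane arm, had 59.3, 49.9 and 42.0 CPM in SOM libraries against 73.2, 121.5 and 90.8 CPM in VIP libraries, a log2 difference of -0.92 (SE 0.85). Ndufb5 had 82.5, 104.5 and 71.6 CPM in SOM libraries against 198, 136 and 111 CPM in VIP libraries, a log2 difference of -0.79 (SE 0.68) that came to -0.50 without VIP replicate 1. Both had an edgeR adjusted p of 1.

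Complex II was read through 3 of its 4 subunits. Sdha, the flavoprotein that holds the succinate site, had 376, 770 and 395 CPM in Nkx2.1, 444, 266 and 331 in SOM and 394, 205 and 215 in VIP libraries, and its lines overlapped. Sdhb had 316, 158 and 323 CPM in Nkx2.1, 224, 277 and 183 in SOM and 478, 276 and 123 in VIP, with overlap as well. Sdhc had 108, 53.9 and 102 CPM in Nkx2.1, 86.6, 78.4 and 78.4 in SOM and 0.736, 52.0 and 65.6 in VIP. SOM libraries lay above VIP libraries for Sdhc with a log2 difference of 1.04 (SE 1.26, edgeR adjusted p = 1); it came to 0.49 without VIP replicate 1, which held 6 reads.

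In complex III the Rieske iron-sulfur protein, Uqcrfs1, had the lowest edgeR adjusted p in each comparison, though 0 members were called. Uqcr10, Uqcr11 and Uqcrb each failed to overlap in 1 comparison. Uqcrfs1 (chr13:30540308-30545362, minus strand), whose promoter is given above, had 19.1, 54.4 and 18 CPM in Nkx2.1, 107, 71.6 and 20.1 in SOM and 365, 297 and 130 in VIP libraries. VIP libraries lay above all others, and Nkx2.1 and SOM libraries overlapped. The log2 difference was -3.11 (SE 0.92, edgeR adjusted p = 0.188) in Nkx2.1 against VIP and -1.99 (SE 0.88, edgeR adjusted p = 0.708) in SOM against VIP. DESeq2 called the first of these, with an adjusted p of 0.00478 in a range to 0.365 over 17 alternatives. Uqcrc2, the other core protein, had 222, 147 and 323 CPM in Nkx2.1, 257, 348 and 250 in SOM and 267, 265 and 220 in VIP, and overlapped. Cyc1, the heme subunit of complex III that the symbol rule does not take, had 28, 0.846 and 59.2 CPM in Nkx2.1, 119, 68.8 and 63.3 in SOM and 293, 330 and 257 in VIP. Its 3 lines did not overlap, and its log2 difference was -3.32 (edgeR adjusted p = 0.236) in Nkx2.1 against VIP. DESeq2 called it there, with an adjusted p of 0.0183 in a range to 0.436 over 17 alternatives.

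Among complex IV subunits, 4 of the 10 tested were lowest in Nkx2.1 and highest in VIP by their means: Cox5a, Cox6a1, Cox8a and, at a low level, Cox5b. Members of other complexes had this order too, among them Uqcrfs1, Atp5b, Atp5d, Ndufv1 and Ndufs7. Its share over all tested genes was not computed. Cox5a, a nuclear subunit on the matrix side (chr9:57521274-57532426, plus strand), had 39.9, 44.6 and 187 CPM in Nkx2.1, 253, 263 and 74.4 in SOM and 355, 319 and 342.5 in VIP libraries. VIP lay above both other lines, which overlapped each other, and the log2 difference of Nkx2.1 against VIP was -1.91 (SE 0.75, edgeR adjusted p = 0.278). Cox6a1, the non-muscle isoform of subunit 6a (chr5:115345642-115348981, minus strand), had 30.8, 115 and 126 CPM in Nkx2.1, 200.4, 181 and 158 in SOM and 249, 251 and 268 in VIP libraries. No pair of lines overlapped, with log2 differences of -0.99 (SE 0.62) in Nkx2.1 against SOM, -1.50 (SE 0.63) in Nkx2.1 against VIP and -0.51 (SE 0.61) in SOM against VIP, and edgeR adjusted p-values of 0.646, 0.296 and 1. The first of these came to -0.56 without Nkx2.1 replicate 1. Cox8a, the ubiquitous isoform of the smallest subunit, had 12.7, 38.3 and 74.3 CPM in Nkx2.1, 56.9, 60.8 and 56.7 in SOM and 95.6, 76.3 and 99.3 in VIP. Nkx2.1 and SOM libraries lay below the VIP libraries, the closest pair being 74.3 CPM in Nkx2.1 and 76.3 CPM in VIP. Cox5b had 3.18, 5.42 and 2.57 CPM in Nkx2.1, 3.4, 15.5 and 3.66 in SOM and 64.9, 11.8 and 16.6 in VIP, with a log2 difference of -3.06 (SE 1.67, edgeR adjusted p = 0.440) in Nkx2.1 against VIP that came to -1.87 without VIP replicate 1.

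The other 6 tested complex IV subunits did not have this order of means. Cox4i1 had 631, 423.5 and 303 CPM in Nkx2.1, 336, 304.5 and 299 in SOM and 487, 290.0 and 266 in VIP, and its lines overlapped. Cox6b1, the subunit that bridges the complex dimer, had 239, 162 and 175 CPM in Nkx2.1 libraries against 150, 138 and 139 CPM in VIP libraries, so Nkx2.1 lay above. Cox7c had 10.6, 27.7 and 35.9 CPM in Nkx2.1 libraries against 0.318, 0.444 and 7.89 CPM in SOM libraries, a log2 difference of 3.09 (SE 2.09, edgeR adjusted p = 0.695) that came to 5.98 without SOM replicate 3. SOM replicates 1 and 2 held 3 reads of Cox7c each, and VIP replicate 1 held 2, while the other VIP libraries held 390 and 274.

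Complex V gave the lowest adjusted p of any member. Atp5d, the delta subunit of the central stalk (chr10:80138632-80145818, plus strand), had 18.1, 41.6 and 81.8 CPM in Nkx2.1, 243, 245 and 123 in SOM and 279, 284.5 and 325 in VIP libraries. The lines stood apart in all 3 comparisons, in the order Nkx2.1, SOM, VIP. The log2 difference was -2.11 (SE 0.66, edgeR adjusted p = 0.326) in Nkx2.1 against SOM, -2.65 (SE 0.68, edgeR adjusted p = 0.156) in Nkx2.1 against VIP and -0.54 (SE 0.64, edgeR adjusted p = 1) in SOM against VIP. DESeq2 called the Nkx2.1 comparisons, with an adjusted p of 0.0328 against SOM and 0.00142 against VIP, in ranges to 0.612 and 0.331 over 17 alternatives. Atp5c1, the gamma subunit that turns with Atp5d, had 317, 470 and 272 CPM in Nkx2.1, 250.4, 242 and 175 in SOM and 271, 144 and 202 in VIP, so its Nkx2.1 libraries lay above both other lines. The closest pair was 271.9 CPM in Nkx2.1 replicate 3 and 271.4 CPM in VIP replicate 1. Its log2 difference was 0.67 (SE 0.46, edgeR adjusted p = 0.711) against SOM and 0.78 (SE 0.46, edgeR adjusted p = 0.494) against VIP. Atp5b had 372, 322 and 834 CPM in Nkx2.1, 1298, 1084 and 697 in SOM and 1707, 1056 and 1168 in VIP, with a log2 difference of -1.36 (SE 0.42, edgeR adjusted p = 0.204) in Nkx2.1 against VIP. Atp5a1 had 1947, 1047 and 707 CPM in Nkx2.1, 745, 924 and 744 in SOM and 1148, 745 and 905 in VIP, and overlapped.

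Other members of the complex V list went in several directions. Atp5f1, of the peripheral stalk, had 67.4, 306 and 142 CPM in Nkx2.1, 89.2, 124.5 and 96.0 in SOM and 80.3, 58.7 and 81.8 in VIP libraries. SOM lay above VIP, with a log2 difference of 0.49 (SE 0.74, edgeR adjusted p = 1), and Nkx2.1 overlapped both, with 1.23 (SE 0.75, edgeR adjusted p = 0.515) against VIP. Atp5o, the subunit that joins the stalk to the head, had 212, 209 and 187 CPM in Nkx2.1 libraries against 154, 166.5 and 115 CPM in SOM libraries, without overlap. Atp5sl, which the symbol rule places here but which is known as Dmac2, a factor of complex I assembly, had 0, 0 and 18.4 CPM in Nkx2.1, 26.1, 37.0 and 52.7 in SOM and 8.46, 2.58 and 2.21 in VIP. SOM lay above both lines, with a log2 difference of -2.65 (SE 2.41, edgeR adjusted p = 0.837) in Nkx2.1 against SOM and 3.12 (SE 2.46, edgeR adjusted p = 1) in SOM against VIP. The first of these came to -11.5 without Nkx2.1 replicate 3, when both remaining Nkx2.1 libraries are at 0 reads, so it is no measure of size.

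**Figure D3:**
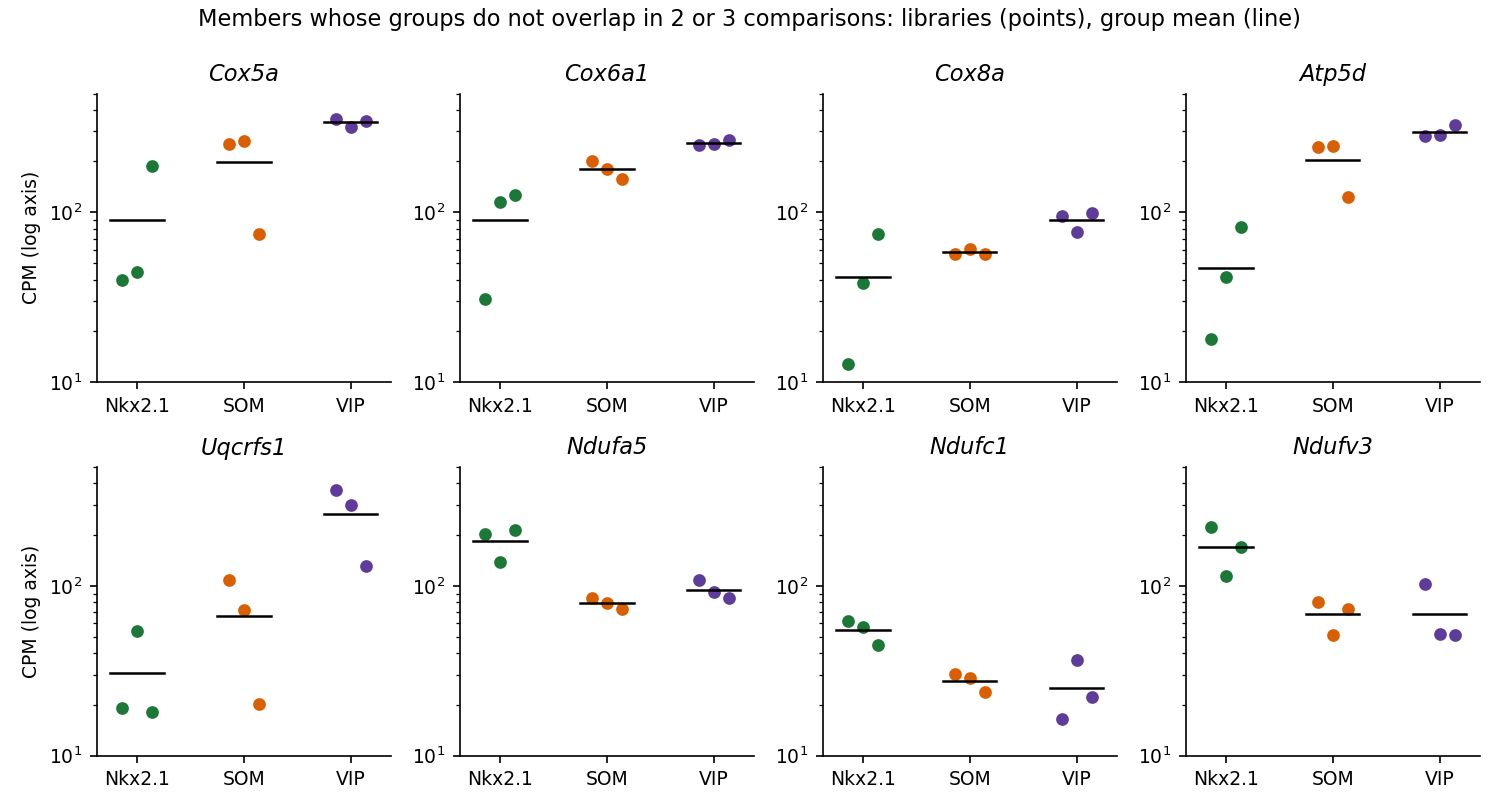
CPM (log axis) of 8 of the 10 members whose lines did not overlap in 2 or 3 comparisons, in Nkx2.1, SOM and VIP libraries; points are libraries and lines are group means. Cox5a, Cox6a1, Cox8a, Atp5d and Uqcrfs1 have their highest points in VIP, and Ndufa5, Ndufc1 and Ndufv3 in Nkx2.1, where Atp5d spans 18.1 to 81.8 CPM.

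Subunits that sit side by side in 1 complex in fixed proportion were not read in fixed proportion, and the Nkx2.1 libraries varied most. These ratios of reads within a library need no scaling between libraries; they were chosen after the values were seen and are a description. Atp5a1 over Atp5b, which alternate in the head, was 5.24, 3.25 and 0.847 in Nkx2.1, 0.574 to 1.07 in SOM and 0.673 to 0.775 in VIP libraries. Atp5c1 over Atp5d was 17.6, 11.3 and 3.32 in Nkx2.1, 0.989 to 1.42 in SOM and 0.505 to 0.972 in VIP. Cox6b1 over Cox6a1 was 7.76, 1.41 and 1.39 in Nkx2.1, 0.614 to 0.845 in SOM and 0.521 to 0.602 in VIP. Of 4 other ratios taken, Cox4i1 over Cox5a was highest in Nkx2.1 replicate 1, at 15.8, and so was Ndufv2 over Ndufv1, at 20.4, but Sdha over Sdhb was highest in Nkx2.1 replicate 2, at 4.88, and Uqcrc1 over Uqcrc2 was lowest in Nkx2.1 replicate 1, at 0.241. Nkx2.1 overlapped SOM in all 4 and VIP in all but Cox4i1 over Cox5a. Nkx2.1 replicate 1 had the highest value in 5 of the 7 ratios, and that library also had the lowest TMM factor, 0.812, which does not enter a ratio within a library.

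Spread between libraries of a line was smaller for the members than for other genes of like level, up to about 300 CPM. The median SD of log2 CPM within a line was 0.51 for the 70 members and 1.78 for the 10658 other tested genes. Between 30 and 100 CPM it was 0.51 for 19 members against 1.90 for 3936 other genes, and between 100 and 300 CPM 0.49 for 30 members against 0.92 for 1966 others. At 300 CPM or more, 5 members had 0.49 and 551 others had 0.51. Nkx2.1 libraries were the least even, with a median SD of 0.76 for members and 2.13 for other genes, against 0.31 and 0.93 in SOM and 0.41 and 1.31 in VIP libraries. The common biological coefficient of variation of the edgeR fit was 1.40, and the median over members was 0.795, against 1.35 over the other tested genes.

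**Figure D4:**
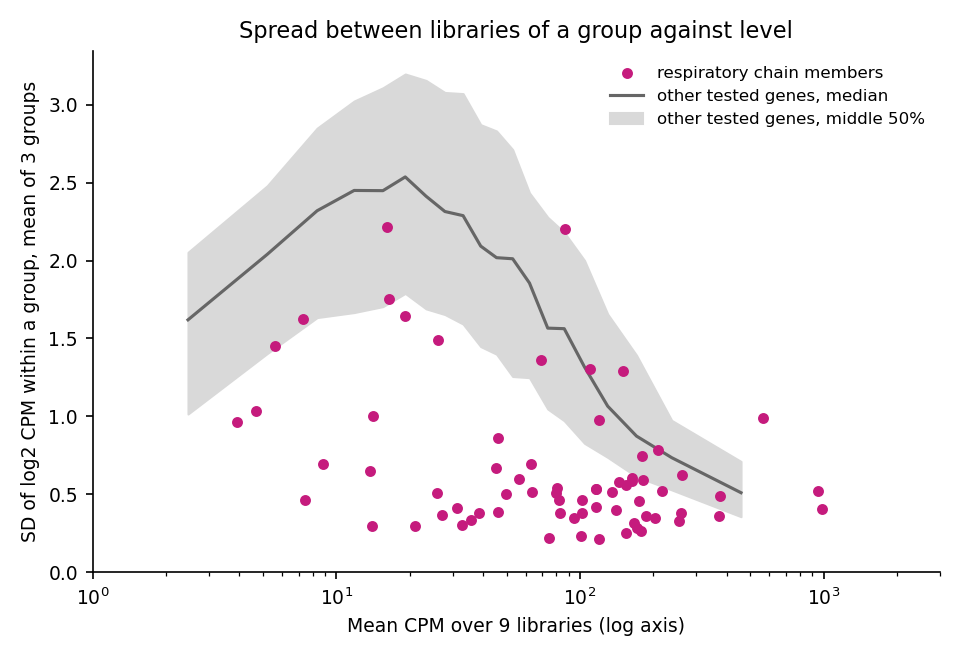
SD of log2 CPM within a line, as the mean of the 3 lines (vertical axis), against mean CPM over 9 libraries (log axis); points are the 70 tested members, and the line and band give the median and middle 50% of the other tested genes. Between 30 and 300 CPM most points lie below the line, whose counterpart medians there were 1.90 and 0.92.

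A few members were nearly absent from, or stood far out in, a single library. A library more than 10-fold away from the median of the other 8 occurred in 11 of 70 members (15.7%), against 71.7% of 10658 other tested genes, a rule set after the values were seen. Ndufs8, an iron-sulfur core subunit of complex I, had 0 reads in Nkx2.1 replicate 3, which allows up to 0.253 CPM at 3 reads, while the other Nkx2.1 libraries held 208 and 153 CPM. Ndufb4 reached 705 reads, or 58.4 CPM, in Nkx2.1 replicate 3, beside a median of 0.752 CPM elsewhere. Uqcrb had 26.9 CPM in SOM replicate 3 and 3.13 CPM or less in all other libraries. Such values fell in 6 different members of complexes I to III and in 5 of complexes IV and V.

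Tissue-restricted isoforms were near or at the limit of detection. Cox6a2, the striated muscle isoform of subunit 6a that is also known from parvalbumin interneurons, had 28 and 26 reads in SOM replicates 1 and 2 and 0 in the other 7 libraries. Cox6b2, a testis isoform, had 23 and 19 reads in the same libraries, 1 read in Nkx2.1 replicate 1 and 0 elsewhere. Cox7a1, of muscle and heart, had 10 reads in SOM replicate 3 and 1 in VIP replicate 3, and Cox7b2, of testis, had 7 reads in Nkx2.1 replicate 1 and 18 in SOM replicate 2. Ndufa4l2, a hypoxia-inducible relative of Ndufa4, had 3 reads in SOM replicate 3 only. Of the 3 genes for subunit c of complex V, which encode the same mature protein, Atp5g3 had 115 to 279 CPM over the 9 libraries, Atp5g1 1.14 to 14.6 CPM and Atp5g2 0 to 3 reads. Sequence shared by Atp5g2 with other genes, above, may touch that last value, which was not tested.

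Reads were absent from all 9 libraries for 8 members (9.52%), against 34.6% of protein-coding genes. They were Ndufb8 and Ndufb11 of complex I, Sdhd of complex II, Cox4i2, Cox7a2, Cox8b and Cox8c of complex IV and Atp5l of complex V. For 5 of them the genes around were at 0 too. Atp5l (chr9:44912557-44920742), Sdhd (chr9:50596357-50603812) and Cox7a2 (chr9:79755361-79759878) lie on the minus strand of chromosome 9, inside 1 run of 484 consecutive minus-strand protein-coding genes at 0 reads in all 9 libraries, from 21294275 to 124476898. All of their 20 nearest protein-coding genes on that strand were at 0, against 7, 2 and 6 of the 20 nearest on the plus strand for Atp5l, Sdhd and Cox7a2. On the whole chromosome 511 of 550 minus-strand genes (92.9%) were at 0, against 33.1% of plus-strand genes.

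Ndufb8 (chr19:44548572-44555440, minus strand) lies in a run of 132 such genes from 27388698 to 60581025, with 20 of 20 neighbours at 0 on its strand and 4 of 20 on the other. Ndufb11 (chrX:20615326-20617619, minus strand) lies in a run of 74 genes from 5466898 to 33702349, where 20 of 20 neighbours on both strands were at 0. These 5 zeros therefore stand in stretches of the tables without reads for any gene on the strand, and give no level for the 5 subunits. Cox4i2, Cox8b and Cox8c, isoforms known from lung, muscle and testis, lay in no long run, with 9, 14 and 6 of 20 same-strand neighbours at 0, and no reads of them were detectable at this depth. The tables held 0 of the 13 mitochondrially encoded subunit genes, which were not analysed here.

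**Figure D5:**
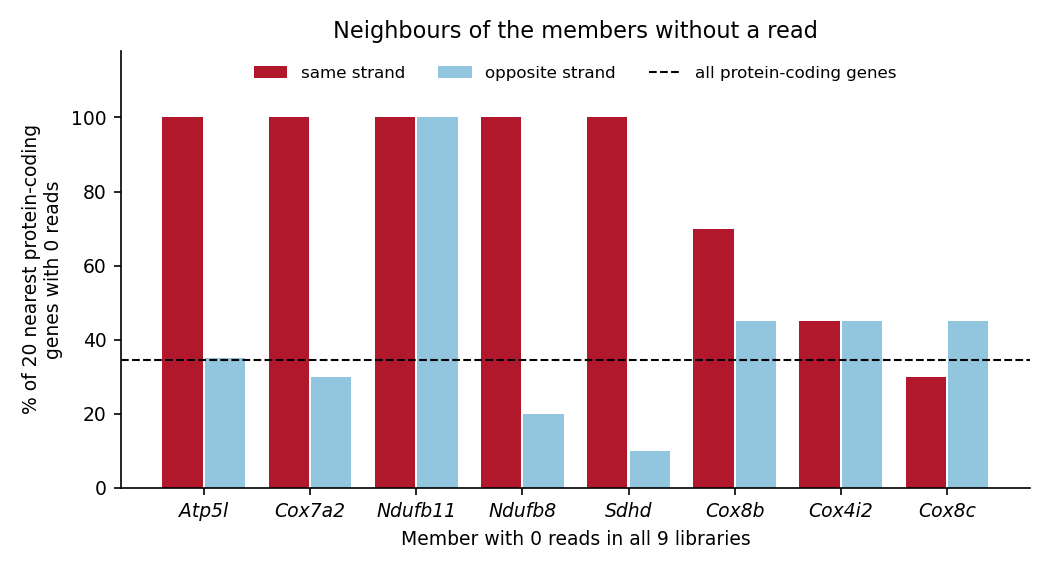
Percentage of the 20 nearest protein-coding genes at 0 reads in all 9 libraries (vertical axis from 0), on the same and the opposite strand, for the 8 members without a read; the dashed line is the 34.6% of all protein-coding genes. Bars of the same strand reach 100% for Atp5l, Cox7a2, Ndufb11, Ndufb8 and Sdhd.

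Transcript composition moved with the differences weakly. Across the 70 tested members, Spearman's rho between transcript GC percent and the fitted log2 value was -0.09 in Nkx2.1 against SOM, -0.27 in Nkx2.1 against VIP and -0.29 in SOM against VIP. Over 10249 tested genes it was -0.18, -0.25 and -0.15. These are descriptions across genes that share libraries, and their part in the differences was not tested.

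The genes that serve the chain gave no edgeR call either. Of 44 assembly factors, 31 were tested, with 0 called by edgeR in each comparison and median log2 values of -0.28 and -0.30 in Nkx2.1 against SOM and VIP and -0.13 between SOM and VIP. Without overlap, 6 of them lay lower in Nkx2.1 than in SOM and 0 higher, and 7 lay lower in Nkx2.1 than in VIP and 0 higher, beside 14% and 12.8% of all tested genes lower. At an unadjusted p under 0.05 edgeR had 5, 6 and 1 of them lower in the same order of comparisons, and 0 higher, beside 8.38%, 9.43% and 2.36% of all tested genes lower. DESeq2 called 5, 7 and 0, all lower, beside 7.73%, 12.7% and 3.84% of its genes in either direction. Voom called 1, 3 and 0, beside 1.06%, 3.01% and 0.699%. Ndufaf5, a factor of complex I assembly, had 0.568, 0 and 0 CPM in Nkx2.1, 54.2, 60.7 and 38.5 in SOM and 18.8, 44.9 and 35.9 in VIP libraries. Cox10, which works in making the heme of complex IV, had 0, 2.03 and 0.331 CPM in Nkx2.1, 56.2, 11.2 and 54.4 in SOM and 92.7, 24.4 and 114 in VIP. Of 12 regulators of mitochondrial biogenesis, 12 were tested and 0 called by edgeR, DESeq2 or voom, with 0 at an unadjusted p under 0.05 in edgeR and medians of 0.24, -0.72 and -0.79. Ppargc1a had 194, 298 and 19.3 CPM in Nkx2.1, 185, 62.5 and 44.0 in SOM and 188, 5.78 and 71.9 in VIP, and overlapped throughout. The natural inhibitor of complex V, Atpif1, had 348, 391 and 304 CPM in Nkx2.1, 226, 252 and 199 in SOM and 165, 198 and 157.5 in VIP, so its lines did not overlap, with a log2 difference of 1.00 (edgeR adjusted p = 0.294) in Nkx2.1 against VIP. DESeq2 gave an adjusted p of 0.0397 there, in a range to 0.594 over 17 alternatives.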

How the data were processed

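The authors deposited raw read counts, as a table of gene symbols for each library. The submitters' processing notes name TopHat2 2.0.9, DESeq2 and mm10; the program that counted reads, its strand setting and its annotation were not given in the sources used here. Each table held 23319 symbols and 5 entries that name no gene (83.6% to 85.2% of its total), which were left out. Counts went into the quasi-likelihood test of edgeR 4.0.16 (R 4.3.3): 1 fit over 9 libraries with the line as the only term, TMM scaling, filterByExpr at a minimum count of 10, 6 residual degrees of freedom and Benjamini-Hochberg adjustment over 10728 genes. The SE was computed back from the log2 value and its F statistic. CPM are counts over the TMM-adjusted number of reads in genes. DESeq2 1.42.0, voom of limma 3.58.1, other scalings, no filter, a replicate block and leaving out each library were alternatives, and the scripts were tested on simulated data. Gene positions and 1 transcript per gene (principal isoform, then the longest) came from GENCODE vM21, and promoters from RefSeq. Named members were the 2 tested ones with the highest mean CPM in each complex and, per comparison and direction, the 3 with the largest fitted fold among those without overlap and with at least 10 CPM in the higher line; other named genes were chosen after their values were seen. The values of 1 tested member are not reported here, though counts and sums include it. Members, lists and tests were chosen with earlier results of these data known. Counts of 3 reads or fewer are at the floor, 0.241 to 0.463 CPM before scaling, which covers counting error only.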

Additional observations from a re-analysis of the deposited data

How the results depend on the processing

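With edgeR, 0 members were called in each comparison under every alternative: other scalings, no filter, 2 lines alone, the replicate block and each library left out in turn. Same-numbered libraries did not visibly deviate together, with correlations of -0.041 to 0.067, beside -0.071 to 0.062 for differently numbered ones. Such correlations over all tested genes cannot exclude a pairing. With the replicate block 0 members were called. DESeq2 called 2 members in Nkx2.1 against SOM and 2 against VIP. The other energy metabolism lists, of 4, 31, 14, 15, 12 and 11 tested genes, had 0 edgeR calls. In them DESeq2 called 6 and 9 genes, beside 7.73% and 12.7% of all genes it tested. Voom called 1 and 3, beside 1.06% and 3.01%. Summed levels moved with the setting, in log2. Complex I, 0.34 in Nkx2.1 against SOM and 0.25 against VIP, came to 0.182 and 0.058 without scaling, 0.071 and 0.065 with upper-quartile scaling, and 0.185 and 0.060 with the total without Rn45s and Malat1. Complex II in Nkx2.1 against SOM, 0.41, came to 0.14 with upper-quartile scaling and 0.14 without Sdha, and against VIP, 0.59, to 0.12 without Sdha. Complex IV in Nkx2.1 against SOM, 0.05, came to -0.22 with upper-quartile scaling and -0.28 without Cox4i1. Against VIP, -0.40, it came to -0.59 without scaling, -0.58 with upper-quartile scaling, -0.59 with the total without Rn45s and Malat1, -0.86 without Cox4i1 and -0.10 without Cox5a, the last chosen after seeing the data. Complex V in Nkx2.1 against SOM, 0.05, came to -0.22 with upper-quartile scaling, and against VIP, -0.18, to -0.45 without Atp5a1. The cause was not tested. With each library left out, complex I in Nkx2.1 against SOM ranged from 0.26 to 0.44 and complex IV against VIP from -0.47 to -0.29. Counts of members without overlap ranged from 9 to 13, 15 to 17 and 11 to 17 over the scalings. Of 306 values of named members, 302 kept their direction and side of the threshold and 4 crossed it with DESeq2. Genes at 3 reads or fewer in most libraries are limited by depth.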

Other observations

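Glycolysis, the cytosolic route that feeds the chain, gave 0 edgeR calls in its 15 tested genes. At an unadjusted p under 0.05 edgeR had 3 lower in Nkx2.1 against SOM, beside 8.38% of all tested genes, and 0 in the other comparisons. DESeq2 made 1 call, Ldha in Nkx2.1 against SOM, beside 7.73% of all genes it tested. Ldha, the lactate dehydrogenase subunit favoured in lactate-forming tissue, had 40.1, 47.1 and 19.9 CPM in Nkx2.1 libraries, 164, 133 and 121 CPM in SOM libraries and 57.9, 113 and 57.6 CPM in VIP libraries. No pair of lines overlapped, with log2 values of -1.96 in Nkx2.1 against SOM, -1.10 in Nkx2.1 against VIP and 0.87 in SOM against VIP. The edgeR adjusted p-values of Ldha were 0.424 in Nkx2.1 against SOM and 0.623 in Nkx2.1 against VIP. Eno2, the neuronal enolase, had 86.7, 72.8 and 134 CPM in Nkx2.1, 312, 457 and 170 CPM in SOM and 274.5, 252 and 145 CPM in VIP. Ldhb, the other subunit, ran otherwise, with 117.5, 41.7 and 32.9 CPM in Nkx2.1, 65.9, 54.3 and 20.7 CPM in SOM and 14.2, 20.5 and 22.7 CPM in VIP. In SOM against VIP, 13 of the 15 genes had a log2 value above 0, with a list median of 0.41 beside 0.00 over all tested genes. These genes were picked after their values were seen.

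Of 14 tested genes of the tricarboxylic acid cycle and 11 antioxidant, uncoupling and carrier genes, 0 were called with edgeR, DESeq2 or voom, and 3 values reached an unadjusted p under 0.05 in edgeR. In SOM against VIP these were 1 higher in each list, beside 4.63% of all tested genes. In Nkx2.1 against SOM it was 1 lower in the second list, beside 8.38%. Cs, the citrate synthase that opens the cycle, had 682, 488 and 329 CPM in SOM libraries against 225.5, 158 and 308 CPM in VIP libraries, without overlap. Idh3g, a regulatory subunit of isocitrate dehydrogenase, had 202, 233 and 177.5 CPM in Nkx2.1, 159, 69.3 and 177 CPM in SOM and 1.72, 107 and 51.5 CPM in VIP, so Nkx2.1 lay above both. Ucp2, an uncoupling protein relative, had 14, 5.03 and 7.55 CPM in SOM libraries and 0 reads in the other 6 libraries.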
